A study of Oryza sativa with 6 samples.

Results

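The regions described here are the HMG-GFP chromatin immunoprecipitation (ChIP-seq) peaks that surround the 12 centromeres of rice. A peak belonged to them when its midpoint lay within 1 Mb of a centromere position, given to 0.1 Mb on each chromosome (16.7 Mb on chromosome 1, 13.6 on 2, 19.4 on 3, 9.7 on 4, 12.4 on 5, 15.3 on 6, 12.1 on 7, 12.9 on 8, 2.8 on 9, 8.2 on 10, 12.0 on 11 and 11.9 on 12). This rule used positions only and no measured value. It selected 7049 of the 158600 peaks of the 3 lists, namely 3093 of 60158 in replicate 1, 2704 of 56916 in replicate 2 and 1252 of 41526 in replicate 3. Merging overlapping peaks gave 3177 regions in 24 Mb of windows, out of 60991 regions on the 12 chromosomes. They were set against the flanks 1 to 3 Mb away, 47.8 Mb with 7102 regions, and against the rest of the chromosomes beyond 3 Mb, 301 Mb with 50712 regions.

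The samples were leaf blades of transgenic rice plants carrying HMG-GFP, a fusion of the chromatin protein OsHMGB1 to green fluorescent protein, which had grown for 28 d under HP, a condition the labels do not spell out. An antibody against GFP recovered the chromatin in 3 immunoprecipitates (IP, replicates 1 to 3), and 3 inputs were taken without antibody. Treatment with 1% formaldehyde is given for IP and input alike. The inputs carry the same transgene and their own values were not analysed here, nor was any IP from plants without HMG-GFP. The promoter of the transgene is not given, and neither is whether the replicates are separate plants, so spreads cover these 3 samples only. The lists hold no read counts and the depth is unknown. Replicate 3 stood apart, with the shortest list and the lowest median fold, 2.03 against 2.84 in replicate 1 and 2.17 in replicate 2, and what part depth or quality of that library has in the results was not tested. Without an IP from plants lacking HMG-GFP, peaks that recur for reasons other than HMG-GFP cannot be told apart from the rest. Neither the genome build of the lists nor that of the centromere positions is stated in the labels or headers.

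HMGB proteins are abundant chromatin proteins that carry an HMG box, bind in the minor groove and bend DNA with little sequence preference. A centromere is the stretch where nucleosomes with the histone variant CENH3 build the kinetochore. In rice it is rich in the satellite repeat CentO and in centromeric retrotransposons, and it is embedded in gene-poor heterochromatin. None of these features, nor base sequence, was read here, because no genome of the lists' coordinates was at hand.

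Around the centromeres HMG-GFP peaks were sparser in every replicate. Replicate 1 had 129 peaks per Mb in the windows, against 143 in the flanks and 166 in the rest. Replicate 2 had 113, against 128 and 159, and replicate 3 had 52.2, against 73.5 and 122. The density in the windows was 0.83 ± 0.11 times that of the flanks (SD, n = 3). It was lower in 3 of 3 replicates (two-sided exact sign-flip permutation test over replicates, p = 0.25, the smallest that 3 replicates allow). Against the rest the ratio was 0.64 ± 0.18 (SD, n = 3), with the same p = 0.25 in the exact test. By chromosome, the windows had fewer peaks per Mb than their flanks on 10, 10 and 12 of 12 chromosomes in replicates 1, 2 and 3. The exceptions were chromosomes 7 and 12 in replicate 1 and chromosomes 7 and 9 in replicate 2. All 12 windows had fewer than the rest of their own chromosome in each replicate.

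The length under peaks did not follow the number of peaks, and here the replicates parted. Peaks covered 35.0% of the windows in replicate 1, against 30.6% of the flanks and 31.7% of the rest. In replicate 2 the shares were 32.3%, against 28.5% and 32.7%. In replicate 3 they were 8.61%, against 11.8% and 24.2%. The windows were thus covered more than the flanks in replicates 1 and 2 and less in replicate 3. The mean difference of 1.65 ± 4.19 percentage points (SD, n = 3) was smaller than the spread between replicates (two-sided exact sign-flip permutation test, p = 0.5). The split held chromosome by chromosome: coverage exceeded that of the flanks on 12 of 12 chromosomes in replicate 1 and 11 in replicate 2, with chromosome 3 the exception, and on 1 in replicate 3, chromosome 7, by 0.080 percentage points.

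**Figure D1:**
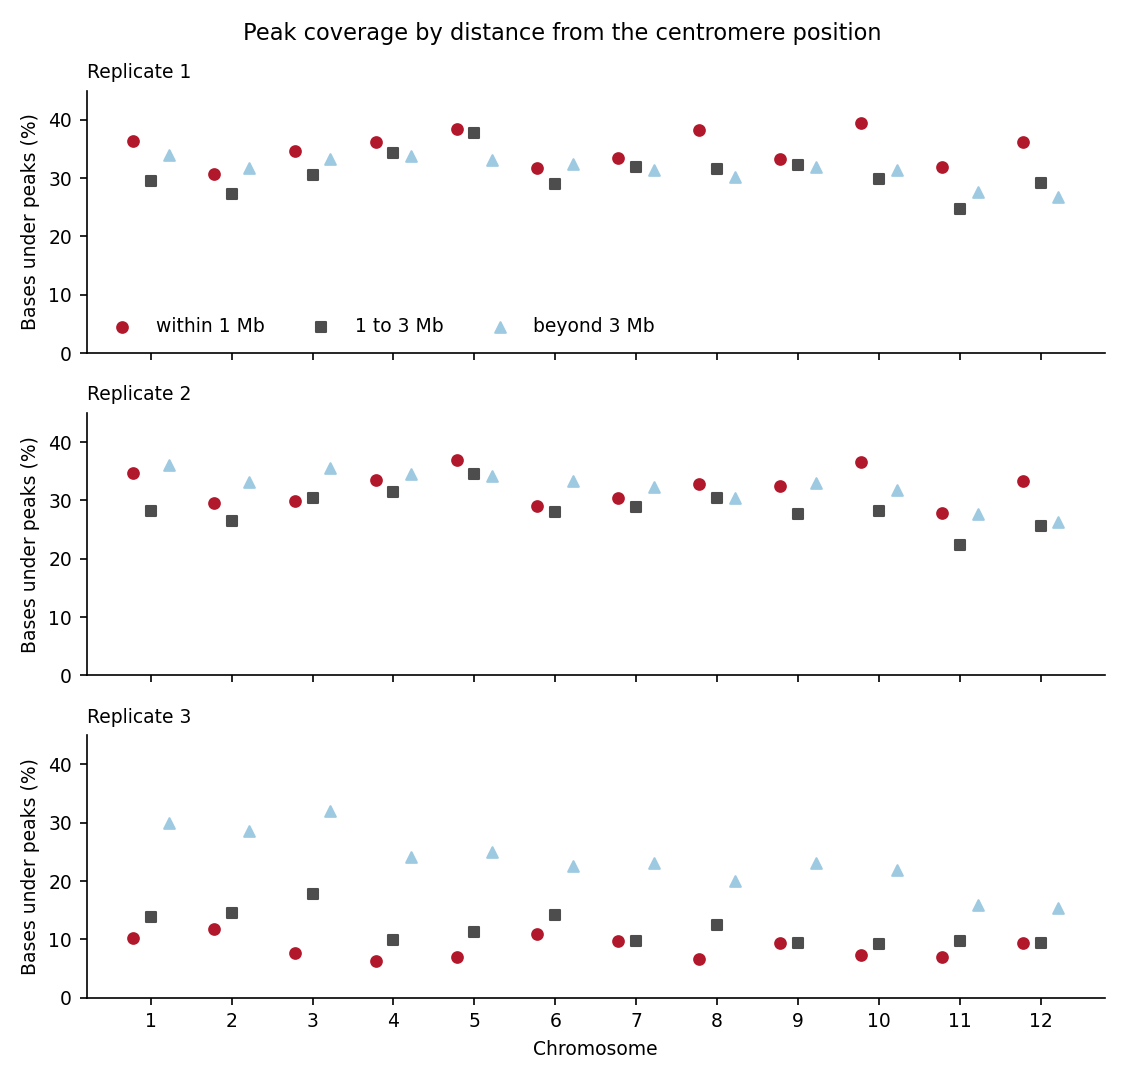
Percentage of bases under HMG-GFP peaks (y axis) on each chromosome (x axis) within 1 Mb of the centromere position (circles), 1 to 3 Mb away (squares) and beyond 3 Mb (triangles), with 1 panel per replicate. The circles lie at 30.7% to 39.5% in replicate 1 and 27.9% to 36.9% in replicate 2, and at 6.31% to 11.8% in replicate 3, below every triangle there.

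Coverage changed most close to the position itself. Within 0.25 Mb on either side, the covered share was 44.4% in replicate 1, 41.5% in replicate 2 and only 5.55% in replicate 3. Between 0.25 and 0.5 Mb they covered 35.2%, 32.2% and 8.53%. Replicates 1 and 2 thus had their highest coverage, and replicate 3 its lowest, in the innermost of the distance bins out to 5 Mb. Just inside the 1 Mb limit, from 0.75 to 1 Mb, the shares were 30.1%, 27.2% and 9.64%, and just outside it, from 1 to 1.25 Mb, 32.5%, 30.3% and 11.6%. The ratio of replicate 3 to replicate 1 coverage was 0.13 in the innermost bin, 0.36 from 1 to 1.25 Mb and 0.50 from 4 to 5 Mb. Peak number moved the other way from coverage in replicates 1 and 2: the innermost bin held 111.3, 100.8 and 33.5 peaks per Mb in replicates 1, 2 and 3, against 146, 128 and 73.2 from 1 to 1.25 Mb. These bins were chosen after the data were seen.

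**Figure D2:**
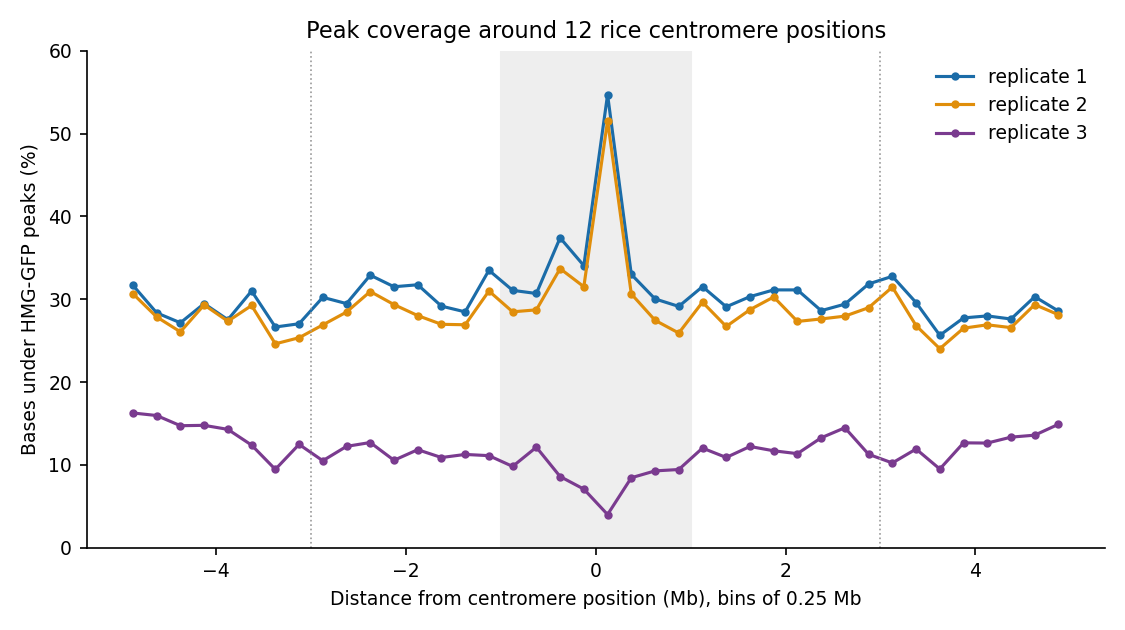
Percentage of bases under HMG-GFP peaks (y axis) in bins of 0.25 Mb by distance from the centromere position (x axis, Mb, negative to the left), pooled over 12 chromosomes, with 1 line per replicate. The shaded band is the 1 Mb window and dotted lines mark 3 Mb. Between 0 and 0.25 Mb to the right, replicates 1 and 2 stand at 54.7% and 51.6%, and replicate 3 at 4.02%.

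The innermost coverage of replicates 1 and 2 was higher to the right of the position than to the left. Pooled over chromosomes, the left 0.25 Mb had 34.1% and 31.5% in replicates 1 and 2, against 30.6% and 28.5% in the flanks. From 0.25 to 0.5 Mb the left side had the more, 37.4% and 33.7%, against 33.0% and 30.6% on the right. In the 250 kb to the right of the position, toward higher coordinates, coverage ran over the 12 chromosomes from 34.5% to 73.4% in replicate 1 and from 31.1% to 74.0% in replicate 2. In replicate 3 it ran from 0.80% to 9.68%, below the other ranges. In the 250 kb to the left the ranges were 24.2% to 50.6%, 19.3% to 49.0% and 1.84% to 11.2%. Replicate 3 thus lay below the others on the left as well. The same held in the flanks, where its highest chromosome had 17.8% and the lowest of replicates 1 and 2 had 24.8% and 22.3%. The right side was covered more than the left on 11 of 12 chromosomes in replicates 1 and 2 alike, all but chromosome 9. It was covered more on 3 of 12 in replicate 3. Since positions are given to 0.1 Mb, an offset of the listed positions from the centromeres cannot be told apart from an asymmetry of the peaks.

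Wide peaks of low fold held much of this inner coverage: those of 10 kb or more covered 21.5% of the innermost 0.25 Mb bin in replicate 1 and 19.2% in replicate 2, out of 44.4% and 41.5%. They numbered 64 within 0.25 Mb of the positions in replicate 1 and 58 in replicate 2, or 10.7 and 9.67 per Mb, and there was none in replicate 3. The flanks had 2.76, 2.41 and 0.021 such peaks per Mb in replicates 1, 2 and 3. Over the whole windows they were 4.30%, 4.33% and 0.16% of the peaks in replicates 1, 2 and 3, against 1.94%, 1.88% and 0.0285% in the flanks. In replicate 3 these shares rest on 2 and 1 peaks. The inner wide peaks had a median fold of 1.82 in replicate 1 and 1.33 in replicate 2. Peaks of 10 kb or more had medians of 2.07 and 1.46 in the flanks and 2.32 and 1.60 beyond 3 Mb. In replicates 1 and 2 low fold was thus common to wide peaks in every zone. Replicate 3 differed: beyond 3 Mb, where 154 of its 157 wide peaks lay, their median fold was 2.14, against 2.03 for its whole list. When only peaks narrower than 10 kb were counted, an alternative chosen after the data were seen, the windows were covered less than the flanks in all 3 replicates: 25.5% against 26.8% in replicate 1, 23.9% against 25.1% in replicate 2 and 8.52% against 11.8% in replicate 3. The median peak differed little in width, with 1600 bp in the windows, 1400 in the flanks and 1200 in the rest for replicate 1, 1800, 1600 and 1400 bp for replicate 2, and 1400, 1400 and 1600 bp for replicate 3.

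**Figure D3:**
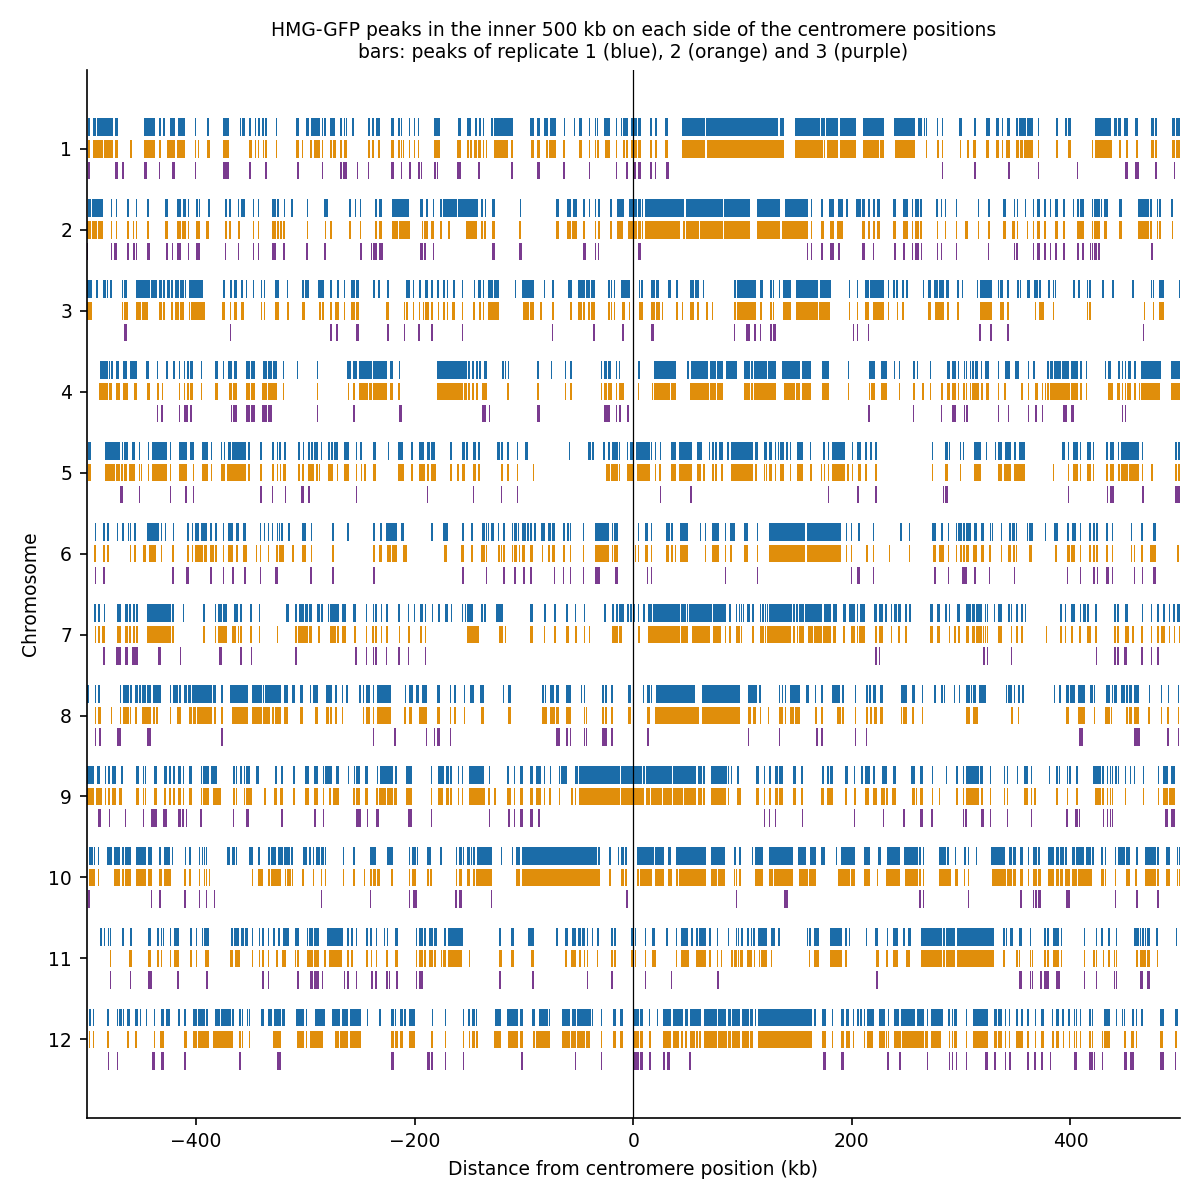
Peaks of replicate 1 (blue), 2 (orange) and 3 (purple) as bars, by distance in kb from the centromere position (x axis), with 1 row of 3 tracks per chromosome. Long blocks of replicates 1 and 2 stand to the right of 0 on most chromosomes, such as the 65200 and 70600 bp peaks of chromosome 1, and replicate 3 has few or no bars in the same places.

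The 5 widest merged regions in the windows all lay within 140 kb of a position, and each was held by replicates 1 and 2 only. On chromosome 1 a region of 71000 bp, from 16767001 to 16838000, held a 65200 bp peak in replicate 1 (fold 1.80) and one of 70600 bp in replicate 2 (fold 1.35). On chromosome 10 another of 71000 bp, from 8098401 to 8169400, held peaks of 68800 and 70800 bp with folds of 1.66 and 1.29. Most of each region was thus a single peak in either list. On chromosome 12 a region of 49000 bp, from 12014601 to 12063600, was the identical interval in both lists, with folds of 1.80 and 1.30. Chromosome 8 carried 40000 bp from 12920201 to 12960200, at folds of 2.13 and 1.47. Chromosome 9 carried 37200 bp from 2750401 to 2787600, at folds of 1.64 and 1.23. All 5 folds in each replicate were below the median of its list, 2.84 in replicate 1 and 2.17 in replicate 2. In these 2 replicates the median fold of wide peaks in the flanks and beyond was below the list median as well. The widest peak of a window lay within 250 kb of the position on 10 of 12 chromosomes in replicate 1 and in replicate 2, and on 1 of 12 in replicate 3, where widest peaks measured 4800 to 12200 bp.

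Fold enrichment, the authors' linear value per peak, was lower around centromeres in replicates 1 and 2. The median was 2.25 in the windows for replicate 1, against 2.46 in the flanks and 2.93 in the rest. For replicate 2 it was 1.76, against 1.91 and 2.23. For replicate 3 it was 1.996, against 1.97 and 2.04. Because folds of different lists need not share a scale, each fold was also ranked within its own list, where 50 marks the middle peak. The median percentile for windows was 26.8, 26.2 and 46.9 in replicates 1, 2 and 3, against 35.2, 34.8 and 44.998 in the flanks and 53.4, 53.1 and 50.5 in the rest. The difference from the flanks, a mean of -5.04 ± 6.02 percentile points (SD, n = 3), was smaller than the spread between replicates (two-sided exact sign-flip permutation test, p = 0.5). Against the rest it was -19.1 ± 13.4 and negative in 3 of 3 replicates (exact test, p = 0.25, the smallest possible). A fold of at least 2 was reached by 65.5%, 36.0% and 49.4% of window peaks in replicates 1, 2 and 3, where the whole lists had 83.0%, 59.8% and 52.8%. With only those peaks, coverage of the windows was 16.8%, 6.035% and 3.83% in replicates 1, 2 and 3, against 18.4%, 8.10% and 5.17% of the flanks, and so lower in each.

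Split by fold, the extra coverage lay in the weakest peaks. Peaks in the lowest quartile of fold of the replicate 1 list covered 23.1% of the windows, against 16.02% of the flanks and 9.94% of the rest, and those of replicate 2 covered 22.3%, against 15.8% and 10.98%. They made up 65.8% and 69.2% of all covered length in the windows in replicates 1 and 2. In the flanks these shares were 52.3% and 55.5%, and in the rest 31.4% and 33.6%. Peaks in the highest quartile covered 1.58%, against 2.194% and 5.65% in replicate 1, and 1.53%, against 2.29% and 5.94% in replicate 2. In replicate 3 the lowest quartile covered 2.98% of the windows, against 3.79% and 6.08%, and the highest 1.65%, against 2.14% and 5.14%. Strong peaks therefore covered less sequence near centromeres in all 3 replicates, and weak ones covered more there in replicates 1 and 2 and less in replicate 3. As a share of window peaks, the highest quartile made up 11.5%, 11.8% and 23.6% in replicates 1, 2 and 3. The flanks had 14.4%, 15.7% and 22.8%, and the rest 27.3%, 26.9% and 25.3%. In replicate 3 that share was no lower than in the flanks, while each quartile had fewer peaks per Mb in the windows.

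**Figure D4:**
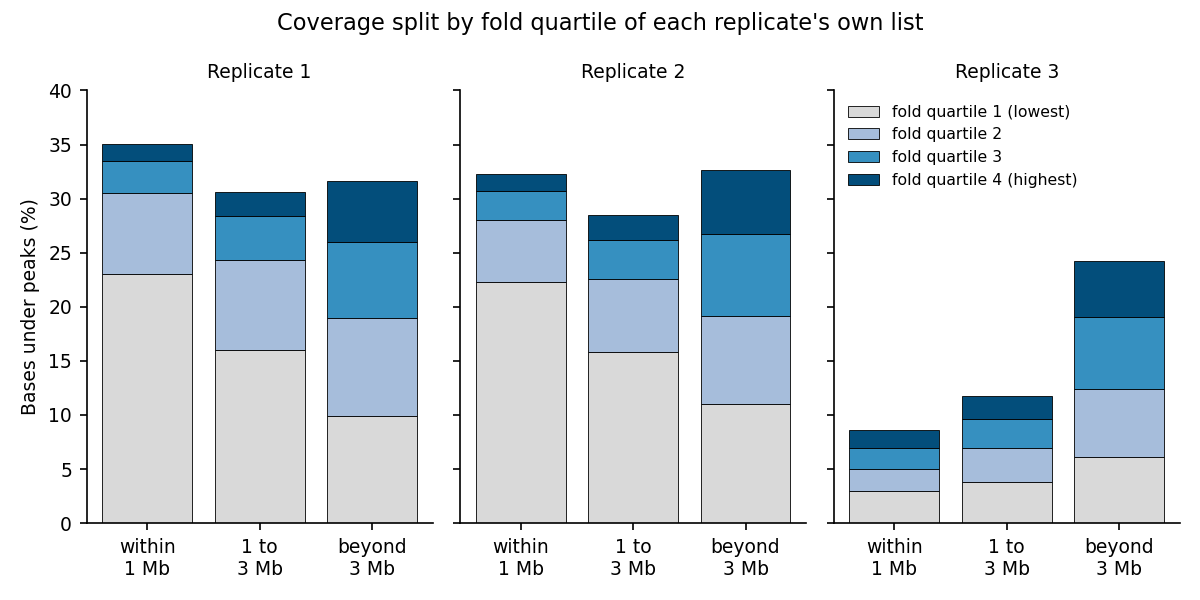
Percentage of bases under HMG-GFP peaks (y axis) within 1 Mb, 1 to 3 Mb and beyond 3 Mb of the centromere positions (x axis), stacked by the fold quartile of the peaks in each replicate's own list, with 1 panel per replicate. The lowest quartile reaches 23.1% and 22.3% of the windows in replicates 1 and 2, and 2.98% in replicate 3.

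Regions found in every replicate were scarcer around centromeres. Of the 3177 merged regions in the windows, 1095 (34.5%) held a peak of all 3 replicates, compared with 58.7% of regions over the 12 chromosomes, 42.6% in the flanks and 62.5% in the rest. That is 45.6 shared regions per Mb in the windows, against 63.2 and 105. Their median width was 2000 bp in all 3 zones. A further 1274 regions (40.1%) were held by replicates 1 and 2 without replicate 3, against 32.7% in the flanks and 19.5% in the rest. Bases under peaks of all 3 replicates were 6.52% of the windows, against 8.61% and 16.9%, whereas bases under a peak of any replicate were 39.8%, against 36.4% and 40.5%. These are single values over 3 replicates and carry no test. With replicate 3 left out, the share of bases under both remaining lists was higher in the windows, at 28.7%, than in the flanks, at 24.8%. Of regions rebuilt from the lists of replicates 1 and 2 only, 76.3% held both in the windows and 77.7% in the flanks. Most of the gap in recurrence between windows and flanks thus came with replicate 3.

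Overlap between lists followed their lengths: replicate 3 had 40.5% as many peaks as replicate 1 in the windows, against 51.6% in the flanks and 73.2% in the rest. Of the replicate 1 peaks in the windows, 81.9% met a replicate 2 peak and 37.9% a replicate 3 peak, against 84.1% and 47.4% in the flanks. These shares are therefore no result apart from the lower number of peaks. Of the replicate 3 peaks there, 90.6% met a replicate 1 peak and 92.6% a replicate 2 peak, against 89.6% and 91.9% in the flanks. Peaks of the other lists that met one of replicate 3 were the stronger ones: window peaks of replicate 1 with a replicate 3 partner had a median fold of 2.91, against 2.03 for those without, and in replicate 2 the medians were 2.22 and 1.55. This was so in every zone. The flanks had 2.99 against 2.14 in replicate 1 and 2.27 against 1.64 in replicate 2. The rest had 3.26 against 2.29 and 2.43 against 1.70. In the highest fold quartile of replicate 1, 88.8% of window peaks were met by replicate 3, against 87.5% in the flanks and 94.6% in the rest. In the lowest quartile the shares were 17.6%, against 23.5% and 40.4%.

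Replicate 3 left long stretches of the windows without a peak. Its longest empty stretch measured 78.8 to 410.6 kb over the 12 windows, with a median of 141 kb against 121 kb in the flanks, and held the centromere position on 4 chromosomes. On chromosome 7 no replicate 3 peak stood from 11910201 to 12320800, 410.6 kb, where replicate 1 had 56 peaks covering 48.9% and replicate 2 had 37 covering 42.8%. On chromosome 1 the stretch from 16732401 to 16982400, 250 kb long, was 74.5% and 73.8% under peaks of replicates 1 and 2. On chromosome 2 the one from 13607401 to 13759200, 151.8 kb, was 88.9% and 89.2% under them. Over the 12 stretches the covered share ran from 24.9% to 88.9% in replicate 1 and from 16.1% to 89.2% in replicate 2. It was above that of the stretch's own window on 9 of 12 chromosomes in both replicates, and below it on chromosomes 5, 6 and 8. On chromosome 8, for example, 30.3% and 16.1% of the stretch lay under peaks, against 38.2% and 32.7% of the whole window. Taking the 3 lists jointly, sequence without any peak in runs of 20 kb or more made up 4.88% of the windows, against 3.47% of the flanks. The longest such run in a window measured 20.8 kb on chromosome 1 to 122 kb on chromosome 4, with a median of 26.7 kb, against 30.6 kb in the flanks. Per Mb, runs of 20 kb or more numbered 1.71 in the windows and 1.23 in the flanks. The flanks of a chromosome span more sequence than its window, so longest runs, here and for replicate 3 above, are taken over unlike lengths.

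The chromosomes with the highest coverage of the right inner 250 kb in replicates 1 and 2 were 1, 2, 7, 10 and 12. The window of chromosome 1 had 36.4%, 34.75% and 10.2% of its length under peaks in replicates 1, 2 and 3, and its right inner 250 kb had 73.4%, 74.0% and 3.44%. Its region of highest median fold lay near the window's edge, 982 kb from the position, from 17681201 to 17682200, with folds of 6.04, 5.48 and 2.85. The window of chromosome 2 was covered to 30.7%, 29.6% and 11.8%, the right inner 250 kb to 69.8%, 67.8% and 7.76%, and 48.2% of its regions were shared, the highest of the 12. Its strongest region, from 14556601 to 14558000, had folds of 5.01, 4.48 and 2.63. The strongest sites of chromosomes 1 and 2 thus stood apart from their inner blocks. Chromosome 12 had window coverage of 36.2%, 33.4% and 9.32%, and its strongest region, from 10943401 to 10944000, had folds of 5.10, 4.37 and 4.15. Coverage of the chromosome 10 window was the highest of the 12 in replicate 1, with 39.5%, 36.6% and 7.31%, and exceeded the flanks by 9.63 and 8.52 percentage points in replicates 1 and 2. Its strongest region, from 8691601 to 8692400, had folds of 4.63, 3.96 and 4.34. The right inner 250 kb of chromosome 7 was covered to 67.4%, 59.5% and 1.36%, although the whole window reached only 33.35%, 30.3% and 9.82%. The nearest regions shared by all replicates stood 190 kb to the left and 220 kb to the right of that position. The strongest of its window, from 12923801 to 12926800, reached folds of 5.57, 4.23 and 2.99.

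Chromosomes 4, 8, 9 and 5 had intermediate coverage of the right inner 250 kb in replicates 1 and 2. The window of chromosome 4 held the fewest peaks per Mb, 113, 95.5 and 33.5, and the weakest by fold percentile, 18.2, 15.5 and 34.2 in replicates 1, 2 and 3. It also held the longest stretch without a peak of any replicate, 122 kb from 9089401 to 9211400. Its coverage was 36.2%, 33.4% and 6.31%, the lowest of all windows in replicate 3. Chromosome 4 thus combined long covered blocks in 2 replicates with few peaks. Its strongest region, from 10004801 to 10006400, had folds of 4.59, 4.01 and 3.21. Chromosome 8 had coverage of 38.2%, 32.7% and 6.61%, only 26.4% of regions were shared, the lowest of the 12, and the strongest region, from 12397001 to 12397400, had folds of 6.24, 3.87 and 4.64. Chromosome 9 had coverage of 33.2%, 32.5% and 9.43%, and 39.2% of regions were shared, against 36.6% in its flanks, the only chromosome where the windows had the higher share. The strongest region of chromosome 9, from 2684801 to 2688000, lay 114 kb from the position and had folds of 4.54, 3.75 and 1.79, the last below the median of its list. Chromosome 5 had coverage of 38.4%, 36.9% and 6.97%, but its flanks were as densely covered in replicate 1, 37.7%. Within 250 kb on either side of its position coverage was 36.0%, 33.3% and 2.48%, below that of window and flanks in each replicate. The strongest region of chromosome 5, from 11625201 to 11626000, had folds of 4.70, 3.64 and 3.01, the lowest median of the 12.

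Chromosomes 3, 6 and 11 had the least inner coverage of the right-hand 250 kb in replicate 1, with chromosome 11 at 34.5%, 31.1% and 2.80%. The window of chromosome 3 was covered to 34.6%, 29.9% and 7.65%. Its flanks had 17.8% in replicate 3, and the window minus flank difference there, -10.2 percentage points, was the largest of any chromosome in that replicate. Its strongest region, from 18491401 to 18492200, had folds of 5.28, 4.95 and 3.03. Chromosome 6 had window coverage of 31.7%, 29.0% and 10.95%, and its strongest region, from 14526201 to 14527800, had folds of 5.25, 4.24 and 2.63. The window of chromosome 11 was covered to 31.9%, 27.9% and 6.96%, the lowest in replicate 2. That window nevertheless held the region of highest median fold of all 35791 shared regions of the genome, 400 bp from 12123201 to 12123600, 123 kb from the position, with folds of 14.4, 7.71 and 3.39. Replicate 3 peaks in this window also ranked highest within their list, with a median percentile of 61.7.

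Strong shared regions were thus present in every window but uncommon. The best region of each window had its highest fold in replicate 1 on 12 of 12 chromosomes and its lowest in replicate 3 on 10, the exceptions being chromosomes 8 and 10. That order was common to shared regions in general: replicate 1 was highest in 84.2% of those in the windows, 84.2% in the flanks and 86.7% in the rest, and replicate 3 lowest in 66.7%, 70.9% and 77.9%. Of the 12 best regions, 8 lay more than 0.5 Mb from the position and 2 within 0.25 Mb, and 7 were no wider than 1000 bp. The windows held 3.06% of all shared regions on 6.43% of the spanned sequence, and 65 (1.82%) of the 3579 that ranked highest by median fold. Within the windows, folds of shared regions ranked most alike in replicates 1 and 2 (Spearman rho 0.72 over 1095 regions), then 2 and 3 (0.51) and 1 and 3 (0.45). In the flanks the same pairs had 0.67, 0.53 and 0.43. Regions of a window share the same libraries and these coefficients carry no p-value.

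**Figure D5:**
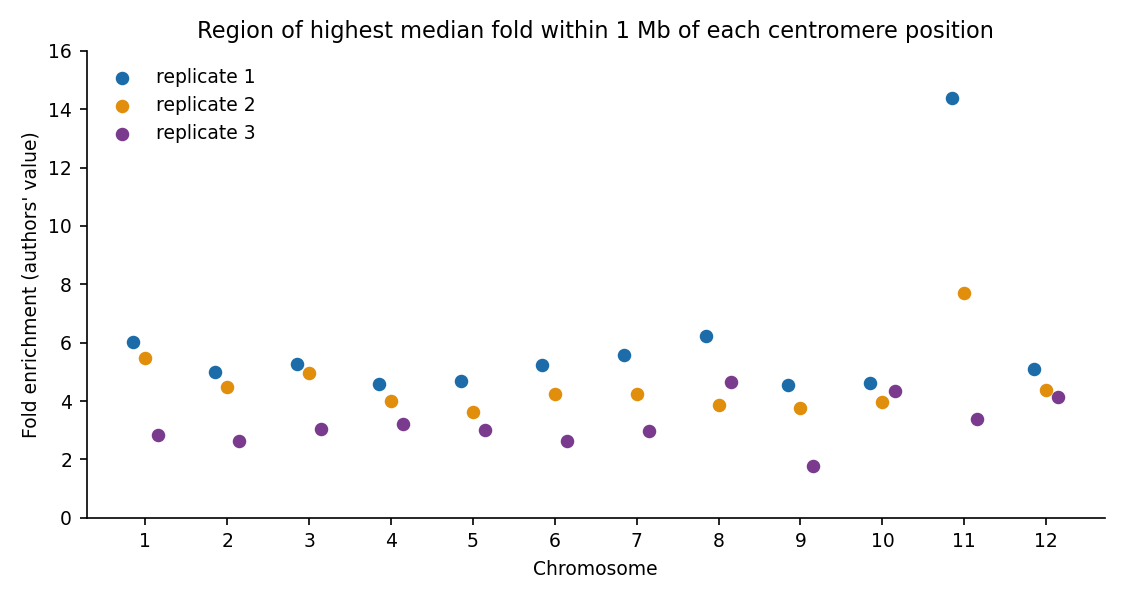
Fold enrichment given by the authors (y axis) in replicates 1, 2 and 3 for the shared region with the highest median fold within 1 Mb of each centromere position (x axis, chromosome). Replicate 1 is the highest on every chromosome, up to 14.4 on chromosome 11, where replicate 3 had 3.39.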

How the data were processed

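Peak lists of 3 HMG-GFP IP replicates were analysed. MACS2 2.1.2, Bowtie2 2.4.1, Trimmomatic 0.33 and bcl2fastq 2.19 are listed, per the submitters' processing notes, without roles or settings. The fold enrichment is a linear ratio per peak, as deposited by the authors, and a pileup column proportional to it was not used. The p-value and FDR are the authors' deposited values and were used only to filter or rank peaks. Starts and lengths fall on a 200 bp grid and neighbouring peaks stand at least 800 bp apart, so nearby signal may have been joined, which affects widths and numbers of peaks. Positions are printed counting from 1.

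Peaks were assigned to zones by midpoint, coverage was cut at zone edges, and chromosomes end at the last base under a peak. The start of chromosome 9 shortens its left flank. Regions merge peaks of the 12 chromosomes that overlap by at least 1 bp, and the region fold of a replicate is that of its highest peak. The named regions are the shared region of highest median fold in each window, the 5 widest regions, and the longest stretches without peaks. The members, lists and rules were chosen with earlier results of these data known. Tests are two-sided exact sign-flip permutation tests over replicates, which cannot go below p = 0.25. The interval arithmetic was tested on simulated data. Genes were not assigned, because the gene table at hand is of another assembly and on all 12 chromosomes it runs beyond the final peak, by 4.46 Mb on chromosome 9. Computation used scipy 1.17.1, pandas 2.3.3 and numpy 2.4.6 under Python 3.11.15, with matplotlib 3.10.9 for figures.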

Additional observations from a re-analysis of the deposited data

How the results depend on the processing

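No paired analysis was possible because the files used here hold values of the IP samples only, so that IP and input of a replicate number could not be set together. The sign-flip tests do pair windows with flanks, or with the rest, within each replicate. All values in this part are differences of windows minus flanks in percentage points, or ratios of windows to flanks, unless the rest of the chromosomes is named. Peak density stayed below 1 in every alternative, at 0.64 against the rest and 0.79 to 0.89 with a replicate left out. The coverage difference of 1.65 turned to -4.23 against the rest, -1.66 with a fold of at least 2 and -1.92 with peaks under 10 kb, the last chosen after seeing the data. It was 4.26 with windows of 0.5 Mb, 2.70 with positions moved left and 0.29 to 4.07 with a replicate left out. The fold percentile difference of -5.04 was -8.33 with windows of 0.5 Mb, -19.1 against the rest and -8.51 to -3.23 with a replicate left out.

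The share of regions in all replicates, -8.08, was -13.2 with windows of 0.5 Mb, -28.0 against the rest, -2.57 with a fold of at least 2, -5.50 with an FDR of at most 1e-20, -6.34 with lists of equal length and -9.02 to -1.35 with a replicate left out. Bases under all lists, -2.09, gave in the same order -3.16, -10.4, -0.966, -1.40, -1.82 and -2.37 to 3.94, positive without replicate 3. They gave -1.99 and -1.53 with positions moved by 0.5 Mb right and left, -2.27 without chromosome 9, -2.09 without chromosomes 4 and 10 and -2.24 with peaks under 10 kb.

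The ratio of replicate 3 to replicate 1 coverage in windows, divided by that in flanks, was 0.64. In the same order it was 0.46, 0.32, 0.81, 0.67 and 0.63, then 0.66 and 0.68 with moved positions, 0.62 without chromosome 9, 0.65 without chromosomes 4 and 10 and 0.76 with peaks under 10 kb. Why these values moved was not tested beyond what each alternative leaves out. The resolution is limited by the 200 bp grid and by positions known to 0.1 Mb.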

Other observations

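The inner blocks were also set beside other places. Within 1 Mb of a centromere position lay 6.46% of the 1487 tiles of 250 kb along the 12 chromosomes. The 12 tiles with the highest mean coverage in replicates 1 and 2 included 6 of these, on 5 chromosomes, and all 6 were within 0.5 Mb. The tile with the most was 16750001 to 17000000 on chromosome 1, with 73.4%, 72.6% and 0.40% in replicates 1, 2 and 3, where the median tile had a mean of 31.1% in replicates 1 and 2. The other 6 of these 12 tiles lay outside the windows, and several had the same pattern of high replicates 1 and 2 and low replicate 3. In the flanks, the tile ranked second, 7000001 to 7250000 on chromosome 10, had 64.6%, 66.3% and 6.0%, and 9750001 to 10000000 on chromosome 5 had 60.8%, 56.7% and 9.12%. Beyond 3 Mb, 18250001 to 18500000 on chromosome 6 had 60.6%, 53.1% and 0.96%. A tile of chromosome 9 from 10500001 to 10750000 had 54.1%, 53.4% and 10.5%, and one of chromosome 3 from 13250001 to 13500000 had 56.4%, 53.7% and 12.6%. The remaining tile, 26750001 to 27000000 on chromosome 4, had 57.2%, 58.2% and 29.0%. The pattern was therefore not confined to the centromere windows. The tiles were chosen after the data were seen, and windows of one chromosome share their libraries.

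Over the 12 windows, coverage ranked alike in replicates 1 and 2 (Pearson r 0.88, Spearman rho 0.89), while replicate 3 had a Pearson r of -0.63 (rho -0.52) with replicate 1 and -0.35 (rho -0.33) with replicate 2. In peaks per Mb the same pairs had a Pearson r of 0.79, 0.35 and 0.71. The 12 points of a pair share 2 libraries, and no p-value is given.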
